A study of Mus musculus with 8 samples.

Results

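The imprinted growth genes H19, Dlk1, Meg3, Peg3, Mest, Plagl1, Grb10, Ndn, Nnat and Gnas were followed in lung endothelial cells (ECs) of neonatal mice. These 10 members were found by gene symbol among the 54532 genes of the deposited count table, each under 1 identifier. Wild-type (WT) pups were kept from their day of birth until day 14 either in normoxia, which is room air with 21% O2, or under hyperoxia with 80% O2, a mouse model of bronchopulmonary dysplasia. Each group held 4 bulk RNA-seq libraries, normoxia 1 to 4 and hyperoxia 1 to 4. No other allele or agent was given for either group. Before RNA isolation, CD45-positive leukocytes had been removed from the lung cell suspension, and the cells bound by CD31-coated beads were kept as ECs. RNA of other lung cells that stay on the beads is counted with that of ECs. The labels did not say whether each library came from 1 pup, so p-values measure the spread between these libraries, which may be partly technical.

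An imprinted gene is transcribed mainly from the copy inherited from 1 parent. In many imprinted domains this depends on a methylation mark that the germ line of 1 parent laid down, on either the silent or the active copy. Many imprinted genes act on growth, with genes read from the paternal copy often promoting it and genes read from the maternal copy often restraining it. In several organs a group of them is abundant before and soon after birth and then falls as growth slows. All libraries here were of the same age, so that fall itself was not measured, and the counts do not tell the parental copies apart. Of the members, Dlk1, Peg3, Mest, Plagl1, Ndn and Nnat are read from the paternal copy, and H19, Meg3 and, in most tissues, Grb10 from the maternal copy. The Gnas locus makes several transcripts with different imprints.

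Libraries held 16098086 to 18300730 counts, and 15564 genes passed the filter on low counts. The first principal component of log2 CPM separated the groups, and hyperoxia 3, at 20.3, lay closer to normoxia than the other hyperoxia libraries, at 40.2 to 42.9. CPM is a gene's count scaled to a common library size after TMM normalization, and log2FC is the log2 ratio of hyperoxia over normoxia. The 12 pan-endothelial markers summed to 19817 to 20387 CPM in normoxia and 19636 to 21298 CPM in hyperoxia, with Cdh5 and Pecam1 most abundant. Of the 12, 4 were higher and 3 were lower in hyperoxia. Among them, and chosen after their values were seen, the receptor gene Tek had a log2FC of -0.79 (adjusted p 6.3e-06) and the co-receptor gene Eng one of 0.43 (adjusted p 1.5e-05). The mean log2 CPM of the list differed by 0.013 (exact two-sided permutation p = 0.629), a mean over markers that moved both ways. Markers of other lung cells were also present and are given after the members.

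The question was which of the growth genes differed between hyperoxic and normoxic ECs. H19 fell most, 4.23-fold. Meg3 rose 2.55-fold, Plagl1 1.61-fold and Ndn 1.22-fold, and Gnas and Grb10 fell by 0.43 and 0.16 on the log2 scale. Peg3, Mest and Nnat did not pass the test, and Dlk1 was too scarce to be tested. Of the 9 members that passed the filter on low counts, 6 had an adjusted p under 0.05 in edgeR, 3 of them higher and 3 lower in hyperoxia. Among all genes tested 35.6% were past that threshold, 18.5% higher and 17.1% lower. When a log2FC of 1 or more in size was also required, H19 and Meg3 were called, 2 of 9 members, against 6.98% of all genes, with 5.62% of genes higher and 1.36% lower. The groups did not overlap for 5 of the 9, against 35.4% of all genes. The median log2FC was 0.29 over the 9 members and -0.0040 over all genes tested. The plot of CPM by library shows the members one by one.

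**Figure D1:**
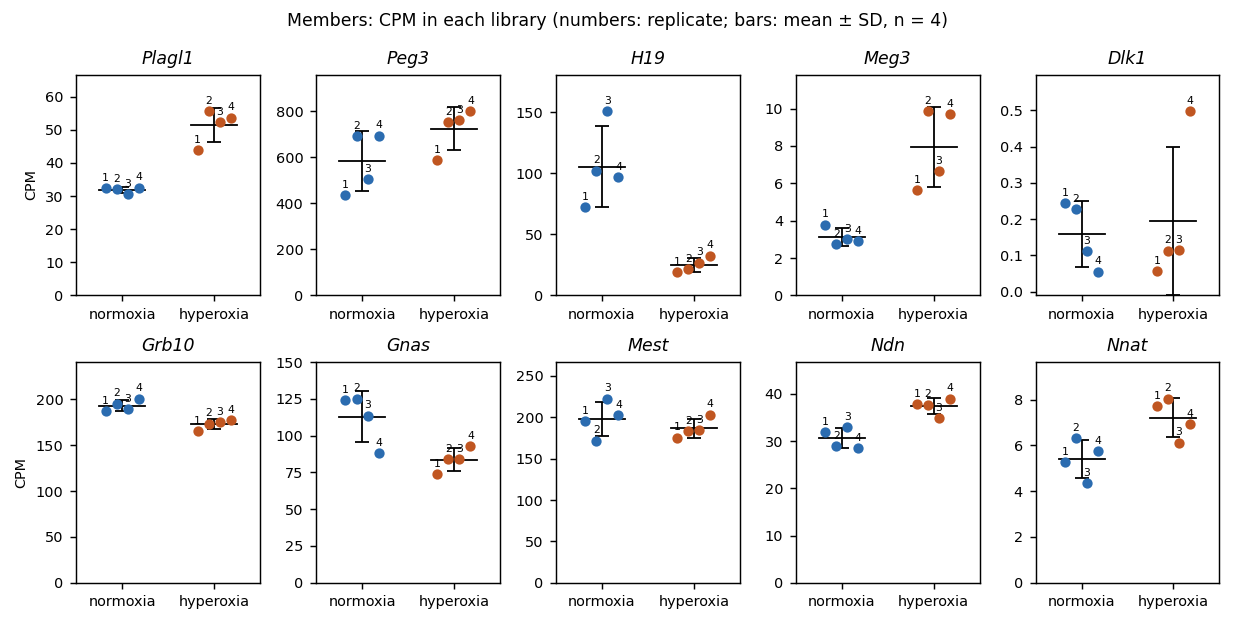
CPM (vertical axis) of each of the 10 members in the 4 normoxia (blue) and 4 hyperoxia (orange) libraries, with the replicate number beside each point and the mean ± SD as bars. H19 is lower and Meg3, Plagl1 and Ndn are higher in all hyperoxia libraries than in all normoxia libraries, while Peg3, Mest and Nnat overlap between the groups.

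The order of the members by level was read from FPKM, which is corrected for gene length. In normoxia Mest stood at 49.8 ± 5.39, Peg3 at 43.4 ± 9.66 and H19 at 42.6 ± 13.3 FPKM (SD, n = 4), and the libraries of these 3 overlapped. Grb10 followed at 21.1 ± 0.631 FPKM, below every library of those 3. Gnas, at 10.0005 ± 1.52 FPKM, overlapped Ndn, at 8.22 ± 0.592 FPKM. Plagl1 (4.04 ± 0.118 FPKM) and Nnat (2.94 ± 0.439 FPKM) came next, and Meg3 (0.171 ± 0.0261 FPKM) and Dlk1 (0.0280 ± 0.0160 FPKM) were at the bottom. The length used for Meg3 is 18089 bases, the union of all its annotated exons, so its level per length is low for any shorter isoform. In hyperoxia Peg3 (54.2 ± 7.12 FPKM) and Mest (47.1 ± 2.95 FPKM) led and overlapped. H19 dropped to 10.1 ± 2.46 FPKM, below Grb10 at 18.9 ± 0.586 FPKM, and overlapped Ndn at 10.1 ± 0.450 FPKM and Gnas at 7.43 ± 0.695 FPKM. Averaged over all libraries, Peg3 stood at percentile 94.0 of the genes tested by FPKM, H19 at 88.2, Plagl1 at 54.2 and Meg3 at 6.60.

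H19 (ENSMUSG00000000031, chromosome 7, 142575529 to 142578143, minus strand, GRCm38) is a long noncoding RNA that restrains growth and is the precursor of miR-675. It had 72.1, 102, 151 and 97.2 CPM in normoxia 1 to 4 and 18.8, 21.6, 27.0 and 32.6 CPM in hyperoxia 1 to 4. Every hyperoxia library lay below every normoxia library. The log2FC was -2.08 (SE 0.223, adjusted p 5.2e-05), that is, H19 was 4.23-fold lower in hyperoxia. Of the 15564 genes tested, 6 had a lower log2FC. The coefficient of variation within groups was 31.2% in normoxia and 24.4% in hyperoxia, the widest spread in normoxia among the tested members. The hairpin of miR-675 lies wholly inside an exon of H19, at chromosome 7, 142577064 to 142577147, so reads on it carry both annotations. The table lists it at 0 counts in all 8 libraries, which were not made to capture small RNA. Its mature arms are shown from RefSeq (GRCm38.p6) because they are what H19 is processed to, with the seed, bases 2 to 8, in capitals.
mmu-miR-675-5p: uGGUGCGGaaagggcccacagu
mmu-miR-675-3p: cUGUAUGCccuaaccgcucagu

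Igf2, the growth factor gene that shares the imprinted domain and enhancers with H19 and is read from the other parental copy, was scarce. It had 18 to 29 counts in normoxia and 4 to 21 counts in hyperoxia, with a log2FC of -0.93 (SE 0.418, adjusted p 0.107), and the groups overlapped. Hyperoxia 1 and 2 held 4 and 7 counts and hyperoxia 3 and 4 held 17 and 21. So both genes of the domain had lower mean levels in hyperoxia, but the difference was past the test for H19 alone.

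Meg3 (ENSMUSG00000021268, chromosome 12, 109541001 to 109571726, plus strand) is a long noncoding RNA that acts as a growth suppressor and hosts microRNAs. It had 3.796, 2.73, 3.02 and 2.93 CPM in normoxia 1 to 4 and 5.65, 9.85, 6.64 and 9.71 CPM in hyperoxia 1 to 4. All hyperoxia libraries lay above all normoxia libraries, and hyperoxia 2 and 4 lay above hyperoxia 1 and 3. The log2FC was 1.35 (SE 0.207, adjusted p 0.00054). These levels rest on 48 to 175 counts per library. Rian, a noncoding RNA downstream of Meg3 on the same strand that is also read from the maternal copy, rose with it, from 1.58 ± 0.264 to 4.86 ± 1.71 CPM (SD, n = 4; log2FC 1.62, SE 0.265, adjusted p 0.00083), without overlap. Mirg, farther downstream, had 1 count in all of normoxia and 5, 2, 3 and 15 counts in hyperoxia 1 to 4, too few for the test. Rtl1 and Dio3, genes of the same domain read mainly from the paternal copy, had 1 and 2 counts over all 8 libraries.

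Dlk1 (ENSMUSG00000040856, chromosome 12, 109452823 to 109463336, plus strand), the paternally read neighbour of Meg3, encodes a membrane protein with EGF-like repeats that is related to the Notch ligands and holds back differentiation. It had 4, 4, 2 and 1 counts in normoxia 1 to 4 and 1, 2, 2 and 9 counts in hyperoxia 1 to 4. With 11 counts in normoxia and 14 in hyperoxia, no difference was detectable at this depth (exact two-sided permutation p of CPM = 0.771). Of the 6 genes of the domain named here, Meg3 and Rian were abundant enough for the test, and Dlk1, Rtl1, Dio3 and Mirg were not. The RefSeq window from 250 bases before to 50 bases after the start of Meg3, chr12:109540746-109541045 on the plus strand, is shown because Meg3 and Rian rose together. The capitals mark a TGCCGC hexamer on the opposite strand, the core bound by ZFP57, which keeps imprints, and a TGACGTCA, the element bound by cAMP-responsive factors.
Meg3 start: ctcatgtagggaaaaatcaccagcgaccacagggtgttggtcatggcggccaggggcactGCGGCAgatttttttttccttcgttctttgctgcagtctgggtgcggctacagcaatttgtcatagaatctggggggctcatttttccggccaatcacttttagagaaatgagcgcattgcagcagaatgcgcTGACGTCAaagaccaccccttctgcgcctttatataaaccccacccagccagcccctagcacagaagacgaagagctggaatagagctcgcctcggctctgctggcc

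The zinc finger factors came next. Plagl1 (ENSMUSG00000019817, chromosome 10, 13060504 to 13131694, plus strand) encodes a transcription factor that arrests the cell cycle and is known as a regulator of other imprinted genes. It had 32.3, 32.1, 30.5 and 32.5 CPM in normoxia 1 to 4 and 44.0, 55.6, 52.4 and 53.6 CPM in hyperoxia 1 to 4. The normoxia libraries lay close together, with a coefficient of variation of 2.93%, and all hyperoxia libraries lay above them, hyperoxia 1 lowest. The log2FC was 0.69 (SE 0.0727, adjusted p 4.6e-05), and 10.1% of the genes tested had a higher one. Of 7 genes listed as relatives, binding targets or partners of Plagl1, 5 were tested, of which none was higher and 1 was lower, the related factor Plag1 (2.49 ± 0.110 and 1.43 ± 0.533 CPM, adjusted p 0.0344). Cdkn1c, an imprinted inhibitor of the cell cycle, had 15.4 ± 1.63 and 14.7 ± 2.73 CPM (adjusted p 0.748), Plagl2 had an adjusted p of 0.634 and Tcf4, at 488 ± 46.6 and 556 ± 35.0 CPM, one of 0.0672. The RefSeq start window of Plagl1, chr10:13090582-13090881 on the plus strand, has a GC content of 70.7% and 26 CpG. It is shown because Plagl1 was the most clearly raised coding member, with a TGCCGC hexamer of the opposite strand in capitals.
Plagl1 start: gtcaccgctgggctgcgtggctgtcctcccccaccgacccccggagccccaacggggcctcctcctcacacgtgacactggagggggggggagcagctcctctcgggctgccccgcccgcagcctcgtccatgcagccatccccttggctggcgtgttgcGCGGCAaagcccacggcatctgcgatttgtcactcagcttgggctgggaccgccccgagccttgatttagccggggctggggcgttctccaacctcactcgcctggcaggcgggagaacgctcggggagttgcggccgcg

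Peg3 (ENSMUSG00000002265, chromosome 7, 6703892 to 6730431, minus strand) encodes a zinc finger protein linked to growth, cell death and maternal behaviour, and it was the most abundant member by CPM. It had 437, 694, 507 and 695 CPM in normoxia 1 to 4 and 587, 752, 762 and 800.2 CPM in hyperoxia 1 to 4. Hyperoxia 1 lay below normoxia 2 and 4, so the groups overlapped. The log2FC was 0.31 (SE 0.149, 95% interval -0.016 to 0.64) and the adjusted p was 0.128. The coefficient of variation of Peg3 was 22.5% in normoxia and 13.01% in hyperoxia. Both of its neighbours in the domain were past the test. Usp29, read from the paternal copy like Peg3 and starting 147 bases from it on the opposite strand, rose from 7.96 ± 1.69 to 13.7 ± 1.18 CPM (log2FC 0.78, SE 0.152, adjusted p 0.0023). Zim1, read from the maternal copy, rose from 1.83 ± 0.510 to 4.33 ± 1.12 CPM (log2FC 1.23, SE 0.252, adjusted p 0.0032). SDs are over 4 libraries, and neither gene overlapped between groups. Normoxia 1, lowest for Peg3, was also the lowest normoxia library for Usp29, at 5.51 CPM against 8.17 to 9.22 CPM in the others. The window of the Peg3 start, chr7:6730370-6730669 on the minus strand, also holds the annotated start of Usp29 and is shown for that reason. The capitals mark a GGGGCCCC, the site bound by PLAGL1, and a TGACGTCA.
Peg3 and Usp29 start: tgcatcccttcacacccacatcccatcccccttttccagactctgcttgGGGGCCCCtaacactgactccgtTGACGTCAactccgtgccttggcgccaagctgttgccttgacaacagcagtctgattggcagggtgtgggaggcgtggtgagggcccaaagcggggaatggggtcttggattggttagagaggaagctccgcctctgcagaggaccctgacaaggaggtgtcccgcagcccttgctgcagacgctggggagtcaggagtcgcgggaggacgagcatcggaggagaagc

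Motifs were searched on both strands in the 16 RefSeq start windows of 300 bases that were found for 9 of the members. No window was found for H19, so its start was not searched. Windows of 1 gene can overlap each other, as 2 windows of Mest and 2 of Gnas do. TGCCGC occurred in 6 of the 16 member windows and in 11.6% of all 32817 mouse windows. These 6 belong to 5 members, Meg3, Mest, Plagl1, Grb10 and Nnat, and include the 2 overlapping windows of Mest. GGGGCCCC occurred in 1 member window, that of Peg3, and in 1.07% of all windows. TGACGTCA occurred in the Meg3 and Peg3 windows and in 1.79% of all windows, and GCCATNTT, the core bound by YY1, in no member window and in 6.04% of all windows. The ratio of observed to expected CpG was above the median of all windows, 0.383, in 14 of the 16 member windows. TGCCGC and TGACGTCA each hold a CpG and the windows were not matched for CpG, so their shares are not like for like.

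Grb10 (ENSMUSG00000020176, chromosome 11, 11930508 to 12038683, minus strand) encodes an adaptor that binds the insulin and IGF1 receptors and dampens their signal. It had 187, 195, 189 and 201 CPM in normoxia 1 to 4 and 166, 173, 175 and 177 CPM in hyperoxia 1 to 4. The groups did not overlap, and the difference, a log2FC of -0.16 (SE 0.0426), had an adjusted p of 0.0136. All 9 genes listed as receptors, relatives and partners of Grb10 were tested, and 2 were higher and 2 were lower. Igf1r, a receptor that Grb10 binds, fell from 154 ± 19.2 to 102 ± 7.38 CPM (log2FC -0.60, adjusted p 0.00033), while Insr, the insulin receptor, stood at 129 ± 13.5 and 138 ± 11.7 CPM (adjusted p 0.36). Grb2, an adaptor to the Ras pathway, fell by 0.19 on the log2 scale (adjusted p 0.0061). The related adaptors Grb14 (log2FC 0.48, adjusted p 0.0031) and Grb7 (0.722 ± 0.242 and 1.68 ± 0.393 CPM, adjusted p 0.0085) rose. Nedd4, a ubiquitin ligase that binds Grb10, was the most abundant of the list, at 1261 ± 62.5 and 1159 ± 16.7 CPM (adjusted p 0.0644). Next to Grb10 on chromosome 11, Cobl rose from 0.390 ± 0.267 to 3.57 ± 1.31 CPM (log2FC 3.18, SE 0.454, adjusted p 0.00034), and Ddc had 17 counts in normoxia and 96 in hyperoxia, of which 4 were in hyperoxia 3.

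Gnas (ENSMUSG00000027523, chromosome 2, 174284320 to 174346744, plus strand) encodes the alpha subunit of the stimulatory G protein, which couples receptors to cAMP, and further transcripts from upstream starts that a count per gene does not separate. It had 124, 125, 114 and 88.0 CPM in normoxia 1 to 4 and 73.8, 83.8, 83.8 and 92.9 CPM in hyperoxia 1 to 4. Normoxia 4 lay below hyperoxia 4, so the groups overlapped at that pair, and the other normoxia libraries lay above all hyperoxia libraries. For Gnas the log2FC was -0.43 (SE 0.108, adjusted p 0.0098). Of 33 other genes of the Gs and cAMP pathway, all tested, 7 were higher and 11 were lower, with a median log2FC of -0.11. Calcrl, the receptor of adrenomedullin and the most abundant of the list, fell from 2483 ± 117 to 1608 ± 113 CPM (log2FC -0.63, adjusted p 2.34e-05), and its partner Ramp3 rose from 19.02 ± 1.75 to 35.2 ± 7.12 CPM (log2FC 0.89, adjusted p 0.00052). Ramp2, another partner, stood at 747 ± 53.7 and 690.4 ± 17.5 CPM (adjusted p 0.139). The regulatory subunits of protein kinase A that are scarce here rose, Prkar1b with a log2FC of 1.69 (adjusted p 0.00057) and Prkar2b with one of 1.07 (adjusted p 0.0014), while the abundant Prkar1a stood at 588 ± 18.5 and 547 ± 13.3 CPM (adjusted p 0.075). Gnb1, a beta subunit that pairs with the product of Gnas, was at 601 ± 14.7 and 629 ± 6.65 CPM (adjusted p 0.225). Antisense genes cover part of the exons of Gnas, Nespas 8.83% and Gm20721 13.1%, with 14 and 54 counts over all libraries.

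The remaining members encode a presumed hydrolase, a MAGE family protein and a small proteolipid. Mest (ENSMUSG00000051855, chromosome 6, 30723547 to 30748465, plus strand), a paternally read gene of mesoderm with a hydrolase fold, had 196, 172, 223 and 202 CPM in normoxia 1 to 4 and 176, 184, 185 and 203 CPM in hyperoxia 1 to 4. The groups overlapped widely, and the log2FC was -0.09 (SE 0.0758, 95% interval -0.25 to 0.08, adjusted p 0.416). Exons of Copg2, a gene on the opposite strand, cover 23.1% of the exon bases of Mest, and since the use of strand in counting was not given in the sources used here, part of both counts is uncertain. Copg2 stood at 51.8 ± 2.86 and 46.9 ± 1.31 CPM (adjusted p 0.0573).

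Ndn (ENSMUSG00000033585, chromosome 7, 62346569 to 62350262, plus strand), a growth suppressor of the MAGE family that has 1 exon, had 31.9, 29.0, 32.9 and 28.6 CPM in normoxia 1 to 4 and 37.9, 37.7, 34.9 and 39.0 CPM in hyperoxia 1 to 4. All hyperoxia libraries lay above all normoxia libraries, with hyperoxia 3 nearest to them. For Ndn the log2FC was 0.29 (SE 0.0644, adjusted p 0.0052). Its domain did not move one way. Snrpn, a paternally read gene for a splicing protein, rose from 2.46 ± 0.677 to 4.18 ± 0.918 CPM (log2FC 0.77, adjusted p 0.0238), and Ube3a, a ubiquitin ligase that is imprinted in neurons, fell from 53.0 ± 2.19 to 47.8 ± 1.04 CPM (log2FC -0.15, adjusted p 0.0328). Peg12 (log2FC 0.33, adjusted p 0.224) and Mkrn3 (-0.60, adjusted p 0.154) did not pass the test, and Magel2 had 15 counts in all, 10 of them in hyperoxia 2.

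Nnat (ENSMUSG00000067786, chromosome 2, 157560078 to 157562522, plus strand), a proteolipid of the endoplasmic reticulum best known in neurons, had 5.27, 6.32, 4.36 and 5.74 CPM in normoxia 1 to 4 and 7.71, 8.04, 6.12 and 6.93 CPM in hyperoxia 1 to 4. Hyperoxia 3 lay below normoxia 2, and the other hyperoxia libraries lay above all normoxia libraries. The log2FC was 0.41 (SE 0.147, 95% interval 0.08 to 0.73), and the adjusted p, 0.0509, fell just short of the threshold. It was 0.0481 in DESeq2 and 0.0478 in limma-voom, so the call for Nnat turned on the tool. Nnat lies in an intron of Blcap, which is on the other strand and stood at 26.3 ± 3.94 and 24.5 ± 1.10 CPM (adjusted p 0.466).

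**Figure D2:**
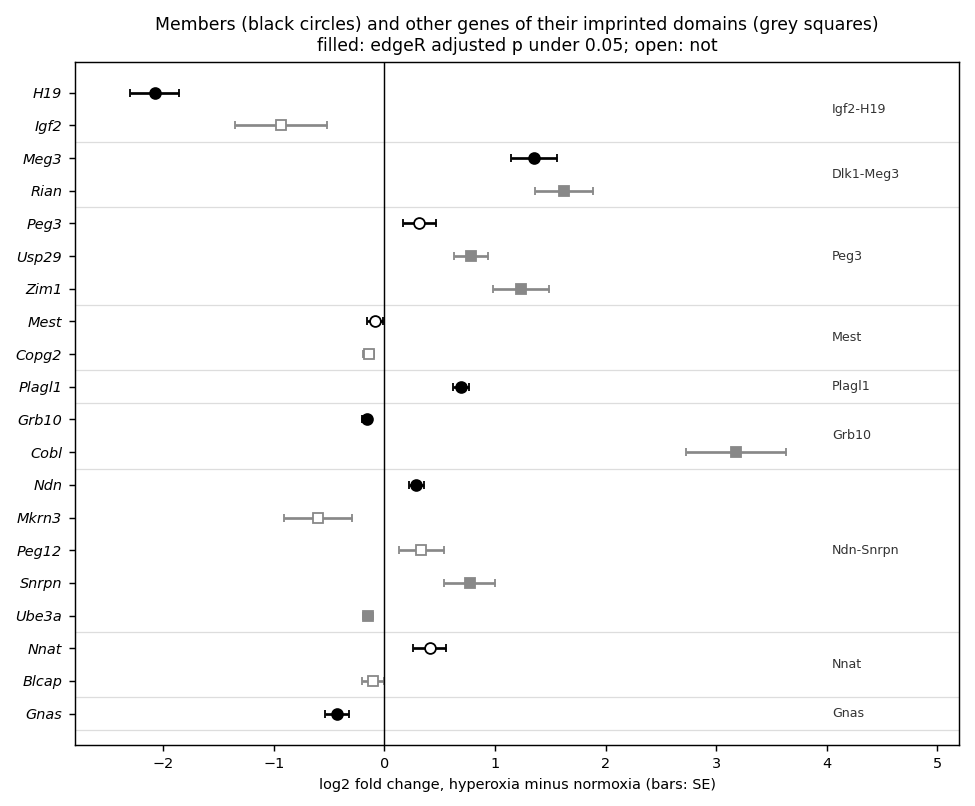
Log2FC of hyperoxia over normoxia (horizontal axis, bars are SE) for the tested members (black circles) and the other tested genes of their imprinted domains (grey squares), with domains named at the right and filled symbols for an adjusted p under 0.05. Meg3 and Rian lie at 1.35 and 1.62, Peg3, Usp29 and Zim1 at 0.31, 0.78 and 1.23, and H19 at -2.08.

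By parental copy, 2 of the 5 tested members read from the paternal copy were higher (Plagl1 and Ndn), none was lower, and 3 did not pass the test. Of the 3 members read from the maternal copy, Meg3 was higher and H19 and Grb10 were lower. Gnas, with several imprints, was in neither group. Among all genes tested 18.5% were higher and 17.1% were lower, the shares to set beside these counts and those of the gene lists. With so few members per copy, a difference between parental copies was not tested. A list of 52 other imprinted genes was also read, and whether each of them is imprinted in lung ECs was not measured. Of this list, 38 were tested, and 12 were higher, 5 were lower and 21 did not pass the test, with a median log2FC of 0.10. The most abundant was Igf2r, the receptor that removes IGF2, which rose from 280.4 ± 14.5 to 480 ± 41.3 CPM (log2FC 0.78, SE 0.0656, adjusted p 9.66e-06). Cd81, a tetraspanin, rose from 202 ± 2.05 to 329 ± 14.3 CPM (log2FC 0.70, adjusted p 1.31e-06). Peg13 (log2FC 0.21, adjusted p 0.0121) and H13 (log2FC 0.19, adjusted p 0.0342) rose less. The largest changes at 1 CPM or more were those of Cobl and Rian, given above, and of the amino acid transporter gene Slc38a4, which rose from 0.748 ± 0.361 to 2.05 ± 0.443 CPM (log2FC 1.45, adjusted p 0.0064).

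Genes that are not imprinted but are also known to be high in young, growing tissue moved both ways. Of 13 listed, 10 were tested, and 3 were higher and 5 were lower. Sox11, a transcription factor of progenitors, fell from 261 ± 29.5 to 106 ± 8.70 CPM (log2FC -1.30, adjusted p 1.85e-06), Sox4 fell by 0.54 (adjusted p 0.0010) and Ezh2, a histone methyltransferase, fell by 0.45 on the log2 scale (adjusted p 0.0019). Gpc3, a proteoglycan that restrains growth, rose from 3.33 ± 1.34 to 9.04 ± 3.79 CPM (log2FC 1.44, adjusted p 0.0115) with overlap between groups, and Igf2bp2, which binds Igf2 RNA, rose with a log2FC of 1.21 (adjusted p 0.0071). Smo, the Hedgehog signal transducer, stood at 57.1 ± 1.95 and 57.9 ± 3.07 CPM (adjusted p 0.781).

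Of 16 genes that read or keep imprints and DNA methylation, 13 were tested, and 7 were lower, 2 were higher and 4 did not pass the test, with a median log2FC of -0.19. Tet1, which oxidises methylated cytosine, fell from 43.3 ± 4.40 to 26.7 ± 1.77 CPM (log2FC -0.70, adjusted p 7.75e-05), and Tet3 fell by 0.29 on the log2 scale (adjusted p 0.0242). Yy1, which binds the Peg3 domain, fell from 247 ± 19.1 to 196 ± 7.14 CPM (log2FC -0.34, adjusted p 0.0013). Trim28, the partner of ZFP57, fell by 0.15 (adjusted p 0.0221), Dnmt3a by 0.20 (adjusted p 0.0465) and Dnmt3b by 0.43 on the log2 scale (adjusted p 0.0337), the groups overlapping for Dnmt3a and Dnmt3b. Uhrf1, which guides DNA methylation in dividing cells, rose with a log2FC of 0.44 (adjusted p 0.0255), with overlap between groups. The other gene of the list that rose was Zfp57 itself, named after its values were seen, from 68.7 ± 5.39 to 79.9 ± 2.43 CPM without overlap (log2FC 0.22, adjusted p 0.0153). Ctcf, the remaining lower gene and also named afterwards, had a log2FC of -0.26 without overlap between groups (adjusted p 0.0023). The methylation of the imprints was not measured.

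Several members are abundant in mesenchymal or neuroendocrine cells as well, and markers of other lung cells were set beside them. The plot of marker lists and members shows both by library. In bulk libraries, fewer cells of a type and less RNA per cell cannot be told apart. Of 12 fibroblast markers, 7 were higher and none was lower in hyperoxia, and they summed to 471 to 729 CPM in normoxia and 728 to 1457 CPM in hyperoxia, none at 0 in all libraries, with hyperoxia 3 at the level of normoxia 1. Fn1 (274 ± 17.2 and 574 ± 106 CPM) and Mfap4 (94.6 ± 31.7 and 158 ± 70.0 CPM) were the most abundant. Fn1 was the largest part of both fibroblast sums. Of 12 mural and myofibroblast markers, led by Mcam and Rgs5, 8 were higher and none was lower (sums of 1134 to 1310 and 1374 to 1634 CPM). Mcam, at 1187 ± 80.8 and 1389 ± 116 CPM with a log2FC of 0.23, made up most of both sums. The sums therefore say little of the other markers, and which cells the Mcam RNA came from was not tested. Acta2, far scarcer and chosen after its values were seen, had 2.57 ± 1.08 and 10.7 ± 2.63 CPM (log2FC 2.06, adjusted p 0.00028). All 10 markers of alveolar type 2 (AT2) cells were higher (292 to 433 and 878 to 2630 CPM), led by Sftpc and Lyz2, and so were all 8 of alveolar type 1 (AT1) cells (101 to 121 and 215 to 549.7 CPM), led by Ager and Gprc5a. Hyperoxia 3 was lowest of the hyperoxia libraries in both alveolar lists, at 878 and 215 CPM.

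Mean log2 CPM was higher by 0.90 in hyperoxia for the fibroblast list (exact two-sided permutation p = 0.0571, adjusted over 9 lists 0.103). It was higher by 1.15 for the mural, 2.37 for the AT2, 2.44 for the AT1 and 0.80 for the mesothelial list (each exact permutation p = 0.0286, the smallest that 4 against 4 libraries can give, adjusted 0.0643). For the Schwann and neural, neuroendocrine and macrophage lists the exact permutation p was 0.114, 0.486 and 0.6. The 7 mesothelial markers, led by Krt19 and Upk1b, summed to at most 14.7 CPM, with 1 of them at 0 in all libraries, and 2 were higher. Of 10 neuroendocrine markers 1 was tested, Grp, which fell from 20.4 ± 2.75 to 13.005 ± 2.44 CPM (adjusted p 0.0038). The next, Chgb, was at 0.200 ± 0.173 and 0.340 ± 0.169 CPM, and 1 was at 0 in all libraries. Of 8 Schwann cell and neural markers 3 were tested and 1 was higher, Ncam1 (3.53 ± 0.933 and 11.4 ± 2.56 CPM). Of 8 macrophage markers 1 was higher and 1 was lower, and Ptprc, which encodes CD45, was at 38.4 ± 16.5 and 38.3 ± 13.1 CPM, with Csf1r at 40.2 ± 18.3 and 36.1 ± 11.5 CPM.

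**Figure D3:**
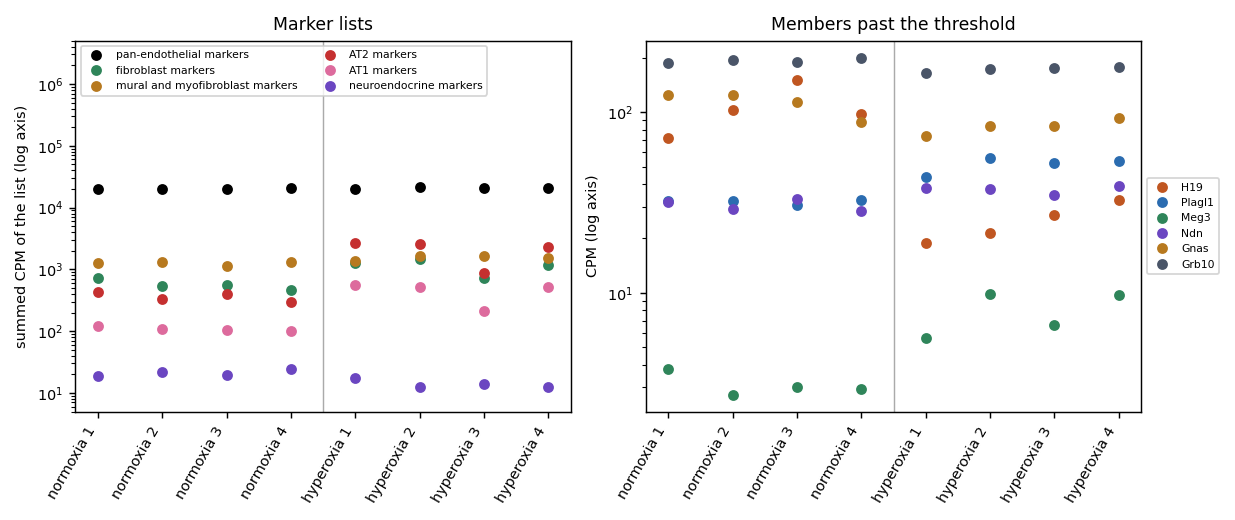
Left, summed CPM of 6 marker lists (log axis) in each library. Right, CPM of the 6 members past the threshold (log axis) in the same libraries. The AT2 and AT1 sums are higher in all hyperoxia libraries and lowest among them in hyperoxia 3, where the fibroblast sum is also at the level of normoxia 1, while the pan-endothelial sum stays between 19636 and 21298 CPM and H19 is lower in all hyperoxia libraries.

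None of these list scores was past 0.05 after adjustment over the 9 lists. With 4 against 4 libraries no permutation p can lie below 0.0286, so lists at that value stood at 0.0643 whatever the size of their difference. Gene by gene, all 10 AT2 and all 8 AT1 markers were past the threshold in edgeR. The part of the other cell types in the members' results was addressed only by the models that follow. With the mean log2 CPM of the fibroblast markers in the model, H19 had a log2FC of -1.64 (adjusted p 0.0084), Plagl1 of 0.68 (adjusted p 0.0033), Meg3 of 0.97 (adjusted p 0.0412) and Gnas of -0.55 (adjusted p 0.0476). Ndn (0.19, adjusted p 0.229) and Grb10 (-0.12, adjusted p 0.287) were no longer past the threshold. In this model 2244 of the 15564 genes were past it. With the mural or the epithelial score no member was past it, and 542 and 206 of the 15564 genes were. Both scores separated the groups, so they and the exposure cannot be told apart. H19 kept its sign, at -1.21 and -1.66, as did Plagl1, at 0.60 and 0.78. Meg3 went from 1.35 to 0.52 with the mural score (adjusted p 0.577) and to 0.71 with the epithelial score (adjusted p 0.659). Ndn went to 0.12 and 0.0036.

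Without hyperoxia 3, 7 members were past the threshold, the added one being Nnat (log2FC 0.48, adjusted p 0.0329). Of the 15920 genes then tested, 5303 were past it. With any single library left out, H19 stayed between -2.23 and -1.86, Meg3 between 1.24 and 1.49 and Plagl1 between 0.65 and 0.76, and all 6 members past the threshold stayed past it, with the largest adjusted p for Grb10, at 0.0445.

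**Figure D4:**
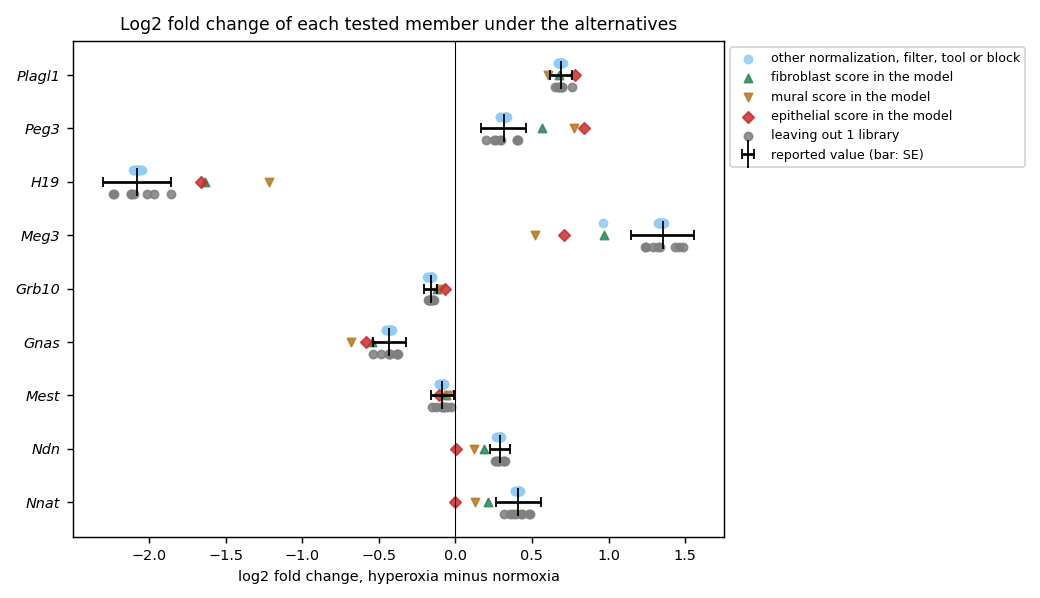
Log2FC (horizontal axis) of the 9 tested members as reported (black, bar is SE), with 1 library left out (grey), with another normalization, filter, tool or a replicate block (light blue) and with the fibroblast, mural or epithelial marker score in the model (triangles and diamonds). H19 lies between -2.23 and -1.21 and Plagl1 between 0.60 and 0.78 in all of them, and Ndn and Nnat approach 0 with the epithelial score.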

How the data were processed

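Lung ECs from 4 normoxia and 4 hyperoxia libraries, grouped by sample title, were compared. Per the submitters' processing notes, HISAT2 2.0.5, featureCounts 1.5.0-p3 and mm10 were used. The study's methods name TRIzol and the labels an RNeasy kit for RNA isolation. The authors deposited whole-number counts per gene and FPKM for the same 54532 genes, and FPKM equalled the count over gene length and library total times a constant per library (0.974 to 1.015). Coordinates and lengths of the members matched GENCODE M21 (GRCm38).

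Counts were tested on all genes with edgeR 4.0.16 (quasi-likelihood, TMM, filterByExpr, group as the only term, R 4.3.3), with Benjamini-Hochberg adjustment over 15564 genes. The study's methods used another version of DESeq2. Here DESeq2 1.42.0 and limma 3.58.1 were alternatives. Scores of lists are mean log2 CPM (prior count 2). Single values were compared by exact permutation tests. In simulated counts over 15336 genes, 171 of 194 changed genes (88.1%) were called with the right sign, and 5 calls were false. This share holds for the changes that were simulated and is not a rate for the members. Libraries of a group differed by more than counting noise (chi-square per degree of freedom at least 5.08). Members, lists and motifs were chosen with earlier results of these data known. Besides the members, the up to 4 most abundant genes of each list and the up to 3 largest changes past the threshold at 1 CPM or more were named (for markers, the 2 most abundant), with neighbours in the imprinted domains. In the motif search each window ran from 250 bases before to 50 after a RefSeq start. The value of 1 named marker is not reported here.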

Additional observations from a re-analysis of the deposited data

Results flagged for a closer look

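In 4 of 38 groups of 4 libraries, over the members and the marker lists, the library at an end lay farther from its nearest neighbour than chance gives in about 1 of 20 groups, which would be 1.9 groups. For Dlk1, hyperoxia 4 stood at 0.499 CPM, which is 9 counts, and the other hyperoxia libraries were at 0.057 to 0.114 CPM. The mean log2 CPM of the mural and myofibroblast markers was 2.41 in normoxia 1 and 1.73 to 1.83 in the other normoxia libraries. Hyperoxia 3 was lowest for the AT2 markers, at 5.48 against 6.72 to 6.87 on the log2 CPM scale, and for the AT1 markers, at 4.09 against 5.42 to 5.49. For the tested members, the results with 1 library left out include those without each of these libraries. Dlk1 was not tested, so there is no such result for it.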

How the results depend on the processing

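With the adjusted p under 0.05 and another normalization, filter or tool, 6 or 7 members were past the threshold, and leaving out 1 library gave 6 to 7. Of all genes, 5334 to 5675 of 14224 to 30282 tested were past it with those settings. With 1 library left out, 4526 to 5445 of 15833 to 15952 genes were. The count of members fell to 0 (0 higher, 0 lower) with the mural and myofibroblast or the epithelial marker score in the model, and to 2 (1 higher, 1 lower) when a log2FC of 1 or more in size was also required. By DESeq2 7 members were past the threshold without a score. With the fibroblast score 4 members were past it, as were 2244 of the 15564 genes. Of the other imprinted genes, 17 were past the threshold, against 6, 2 and 0 with the fibroblast, mural and epithelial scores, and 14 to 18 with 1 library left out. These scores rise with the exposure, and the cause of the lost calls was not tested. Dcn (adjusted p 0.0166 without a score) is both in that list and among the fibroblast markers, so its result with the fibroblast score is not independent of the score. Nnat alone changed sign, to -0.0021 with the epithelial score (adjusted p 0.999). Nnat was past the threshold under 7 of 20 alternatives and Peg3 under 2, namely without the filter (adjusted p 0.0416) and with the block. Grb10 lost the call without the filter (adjusted p 0.055). Replicate numbers are shared by the groups, but same-numbered libraries deviated together for 1 pair at most (correlations across genes of -0.14 to 0.12), so the numbers were not taken as pairs. With the replicate block 8 members were past the threshold, 5 of them higher, including Peg3 (adjusted p 0.018) and Nnat (adjusted p 0.0461). In that model 4792 of the 15564 genes were past it, 2582 of them higher. Other normalizations moved the median of all genes by at most 0.023. Depth limits Dlk1, which at up to 9 counts per library had an adjusted p of 0.825 without the filter.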

Other observations

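Scarce genes inside members were listed with their counts alone. Mir335, the hairpin gene in an intron of Mest, had 1, 1, 4 and 1 counts in normoxia 1 to 4 and 0 counts in each hyperoxia library. The libraries were not made for small RNA, so these counts do not measure the mature microRNA, and no test was made. Nespas, antisense to part of Gnas, had 1, 0, 1 and 1 counts in normoxia 1 to 4 and 3, 3, 3 and 2 counts in hyperoxia 1 to 4, also too few for the test.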
